A study of Mus musculus with 6 samples.

Results

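The genes of Polycomb repressive complex 2 (PRC2) were examined for dimethylation of lysine 79 of histone H3 (H3K79me2). The set was fixed by name and holds 10 genes: Ezh1, Ezh2, Eed, Suz12, Jarid2, Rbbp4, Rbbp7, Mtf2, Phf19 and Aebp2, of 21938 protein-coding genes on chromosomes 1 to 19, X and Y in GENCODE M21. H3K79me2 had been mapped by chromatin immunoprecipitation and sequencing in N2a cells, an established mouse neuroblastoma cell line. Cells were transfected with a plasmid for a short hairpin RNA, either a non-target control (CTR) or one against Npm1 (NPM1 KD), the gene of the nucleolar histone chaperone nucleophosmin, then selected with puromycin and fixed at day 3 in vitro. Each group had 2 libraries from separate passages and transfections, and 1 pooled input sample that came without a peak list. The labels name no second hairpin against Npm1, and the peak lists carry no RNA level, so the depth of the knockdown was not measured here.

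PRC2 methylates H3K27 and thereby keeps genes silent. Its catalytic subunit is EZH1 or EZH2, held together with EED, SUZ12 and the histone-binding proteins RBBP4 or RBBP7. The accessory subunits MTF2, PHF19, JARID2 and AEBP2 help to bring the complex to its targets. H3K79me2 is set by DOT1L, a different methyltransferase, and lies over the early part of transcribed genes, starting at the promoter. The peaks described here therefore mark the genes that encode PRC2, and say nothing of where PRC2 itself binds.

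The starts of Ezh1 and Ezh2 are shown because these catalytic genes carried the mark over different lengths, and that of Phf19 because it had no peak. The promoters are RefSeq sequences on GRCm38.p6, each reaching from 250 bases before to 50 bases after the start, read along the strand of the gene, with every CG in capitals. That of Ezh1 lies at chr11:101226414-101226713 on the minus strand, that of Ezh2 at chr6:47594981-47595280 on the minus strand and that of Phf19 at chr2:34913927-34914226 on the minus strand.
Ezh1 promoter: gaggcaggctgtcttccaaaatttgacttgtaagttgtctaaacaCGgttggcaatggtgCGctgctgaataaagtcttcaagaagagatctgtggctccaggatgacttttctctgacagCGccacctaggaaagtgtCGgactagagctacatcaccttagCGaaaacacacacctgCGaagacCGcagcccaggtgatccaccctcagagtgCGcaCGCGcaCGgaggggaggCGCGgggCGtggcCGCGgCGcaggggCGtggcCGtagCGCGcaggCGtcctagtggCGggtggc
Ezh2 promoter: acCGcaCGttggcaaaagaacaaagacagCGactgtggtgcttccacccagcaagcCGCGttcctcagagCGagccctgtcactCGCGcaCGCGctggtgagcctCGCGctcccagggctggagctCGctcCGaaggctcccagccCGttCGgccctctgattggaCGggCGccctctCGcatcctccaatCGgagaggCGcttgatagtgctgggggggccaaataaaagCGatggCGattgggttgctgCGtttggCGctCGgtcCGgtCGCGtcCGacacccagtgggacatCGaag
Phf19 promoter: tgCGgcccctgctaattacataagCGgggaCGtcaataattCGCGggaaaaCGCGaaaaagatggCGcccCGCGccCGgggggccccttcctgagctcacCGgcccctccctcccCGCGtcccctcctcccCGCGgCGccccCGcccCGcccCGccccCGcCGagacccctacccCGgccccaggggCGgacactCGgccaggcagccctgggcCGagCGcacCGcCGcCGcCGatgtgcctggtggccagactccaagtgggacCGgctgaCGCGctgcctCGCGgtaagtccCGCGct
The Ezh1 promoter held 23 CG dinucleotides, the Ezh2 promoter 31 and the Phf19 promoter 38, against a median of 7 over the 32851 promoters of the table, 94.6% of which held at least 1 (CG reads the same on both strands). The Phf19 promoter thus had more CG than 95.0% of them. All 10 genes matched the table. Those of Suz12 (41 CG), Rbbp4 (39), Rbbp7 (38), Mtf2 (30), Jarid2 (23) and Eed (17) were above the median too. The entry nearest to the Aebp2 start used here lay 836 bp before it and held 4 CG.

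The study also had a quantitative PCR amplicon near the start of Ezh1 and of Ezh2. By such PCR the paper reported significantly raised H3K79me2 at the Ezh2 promoter upon NPM1 KD, and it noted strong batch effects. Ezh1 was not among the genes it named as raised. The primers of both amplicons were matched to GRCm38. Each product is printed along the strand of its gene with the primer sites in capitals. The Ezh1 product of 129 bp, at chr11:101225829-101225957, lies in intron 1, from 493 to 621 bp after the gene start. The Ezh2 product of 121 bp, at chr6:47595840-47595960, lies 810 to 930 bp upstream of the gene start, beyond the annotated span of Ezh2. Its overlap with other genes was not examined.
Ezh1 amplicon: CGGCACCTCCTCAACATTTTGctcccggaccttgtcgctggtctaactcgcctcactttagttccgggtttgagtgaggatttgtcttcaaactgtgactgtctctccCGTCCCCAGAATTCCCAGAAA
Ezh2 amplicon: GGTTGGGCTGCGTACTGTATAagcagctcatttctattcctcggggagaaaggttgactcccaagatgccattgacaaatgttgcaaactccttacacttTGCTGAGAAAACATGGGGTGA
In all 4 libraries, broad and narrow peaks covered every base of both products. The amplicons sat at different heights of the signal. Over the Ezh1 product the narrow peak was the one with the highest summit of the gene, whose fold over background was 13.3 and 11.3 in the CTR libraries and 13.6 and 9.08 in the NPM1 KD libraries (replicate 1 first, here and below). Over the Ezh2 product it was a side peak on the upstream flank, of fold 4.50 and 5.78 in CTR and 5.01 and 4.07 in NPM1 KD. By these narrow folds the groups overlapped at both products. By the broad peak over each product the groups were apart in opposite directions. Folds were 5.08 and 4.99 in CTR against 5.52 and 5.24 in NPM1 KD at Ezh1, and 8.89 and 9.77 against 7.04 and 8.87 at Ezh2. At Ezh2 they were only just apart, at 8.892 in CTR 1 and 8.871 in NPM1 KD 2. These folds belong to whole peaks and do not measure the mark at the product itself. The peak of fold 7.04 was 41743 bp long, against 30606 bp in CTR 1. By the highest broad fold CTR was also the higher at Jarid2, Rbbp4, Rbbp7, Mtf2 and Aebp2. The share of all windows in either order was not taken for this fold, so these orders are no result about the genes. Ranked within its own list, the highest broad fold was higher in both NPM1 KD libraries at Ezh1, Suz12, Rbbp4 and Mtf2. By that rank the groups overlapped at Ezh2, Jarid2, Rbbp7 and Aebp2.

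Peaks were taken as the authors' MACS2 lists gave them, 1 broad and 1 narrow list per library. The broad lists held 34845 to 48764 peaks and the narrow lists 73801 to 88348. CTR 2 had the fewest of both. The background of fragments against which narrow peaks were called, which scales with depth, was 11.9 and 7.65 in the CTR libraries and 8.99 and 11.8 in the NPM1 KD libraries. Neither measure separated the groups. Read totals per library are not given in the peak lists. For each gene a window was set from 3 kb upstream to the end of the gene body. The share of the window under broad peaks was its level, a value per length. Between genes, levels depend also on how far the annotated gene runs on past the mark, as at Aebp2. The gene start was that of the principal transcript. With 2 libraries a group, an exact permutation test between groups cannot give a p under 0.333, and no single difference below could pass a threshold of 0.05 by it.

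H3K79me2 covered 9 of the 10 genes in every library, and Phf19 in none. Phf19, which encodes a Polycomb-like accessory protein, had no broad and no narrow peak in any of the 4 libraries. The gene spans chr2:34893757-34914026 (mm10, minus strand). The nearest broad peak lay 20967 to 21207 bp from its window, past the 3′ end of the gene, over Psmd5. A window without a broad peak was common, at 45.9% of the 21938 genes. Of the other 9 genes the level ran from 26.9% at Ezh1 to 97.6% at Rbbp4 (means of 4 libraries).

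**Figure D1:**
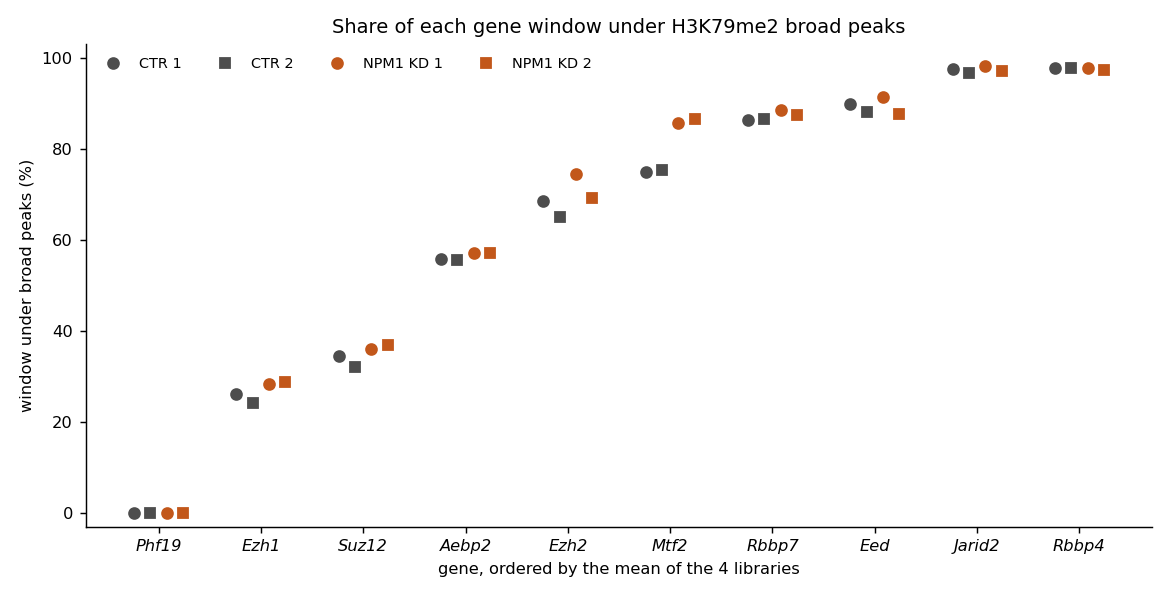
Share of each gene window under H3K79me2 broad peaks (%, vertical axis) for the 10 PRC2 genes, ordered by the mean of the 4 libraries. Grey points are CTR and orange points NPM1 KD libraries, circles replicate 1 and squares replicate 2. Phf19 is at 0 in all libraries, Ezh1 is the lowest of the genes with a peak at 24.2% to 28.8%, and Jarid2 and Rbbp4 are above 96% throughout.

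Ezh1 and Ezh2, the alternative catalytic subunits, differed widely. Ezh1 lies at chr11:101191115-101226463 and Ezh2 at chr6:47530139-47595341, both on the minus strand. At Ezh1 the CTR libraries had 26.1% and 24.2% of the window under broad peaks, and the NPM1 KD libraries 28.3% and 28.8%. At Ezh2 the CTR libraries had 68.6% and 65.1%, and the NPM1 KD libraries 74.5% and 69.2%. Every library had the higher level at Ezh2, by 42.5 ± 2.60 percentage points (SD, n = 4; exact sign-flip permutation test, two-sided, p = 0.13, the smallest that 4 libraries can give). In length, Ezh1 had 9289 to 11031 bp under peaks in a gene of 35.3 kb, and Ezh2 had 44399 to 50796 bp in a gene of 65.2 kb. Within 3 kb on either side of the gene start the gap was only 6.96 points, so most of it lay further along the gene bodies.

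The mark at Ezh1 was a single block at the start of the gene. It reached 8.7 and 8.2 kb into the gene in the CTR libraries and 8.4 and 9.4 kb in the NPM1 KD libraries, to intron 2 in 3 of them and to exon 4 in NPM1 KD 2. Intron 1 of Ezh1, 7675 bp long, was covered whole in every library. Of the exons of the principal transcript 2.91% to 9.33% was covered, and of the remaining introns 1.78% to 6.00%. Apart from the block, 4 small broad peaks fell in the Ezh1 window over all libraries, with folds of 1.73 to 1.79, against 4.99 to 5.52 for the block.

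Ezh2 carried a block of similar outline but longer, followed by a chain of weaker peaks. The block ended 28.2 to 28.7 kb into the gene, in intron 3, in both CTR libraries and NPM1 KD 2. In NPM1 KD 1 it ran on to 40.0 kb, in intron 5, across places where the other 3 libraries had gaps. After the block came 4 to 6 further peaks per library, of fold 1.73 to 3.22, the last of them ending 57.0 to 59.5 kb into the gene, in intron 15. The final 5.38 to 7.88 kb of Ezh2 held no peak. The lincRNA Gm26625 and the processed pseudogene Gm44282 overlap the Ezh2 window, and peaks there cannot be assigned to one gene.

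**Figure D2:**
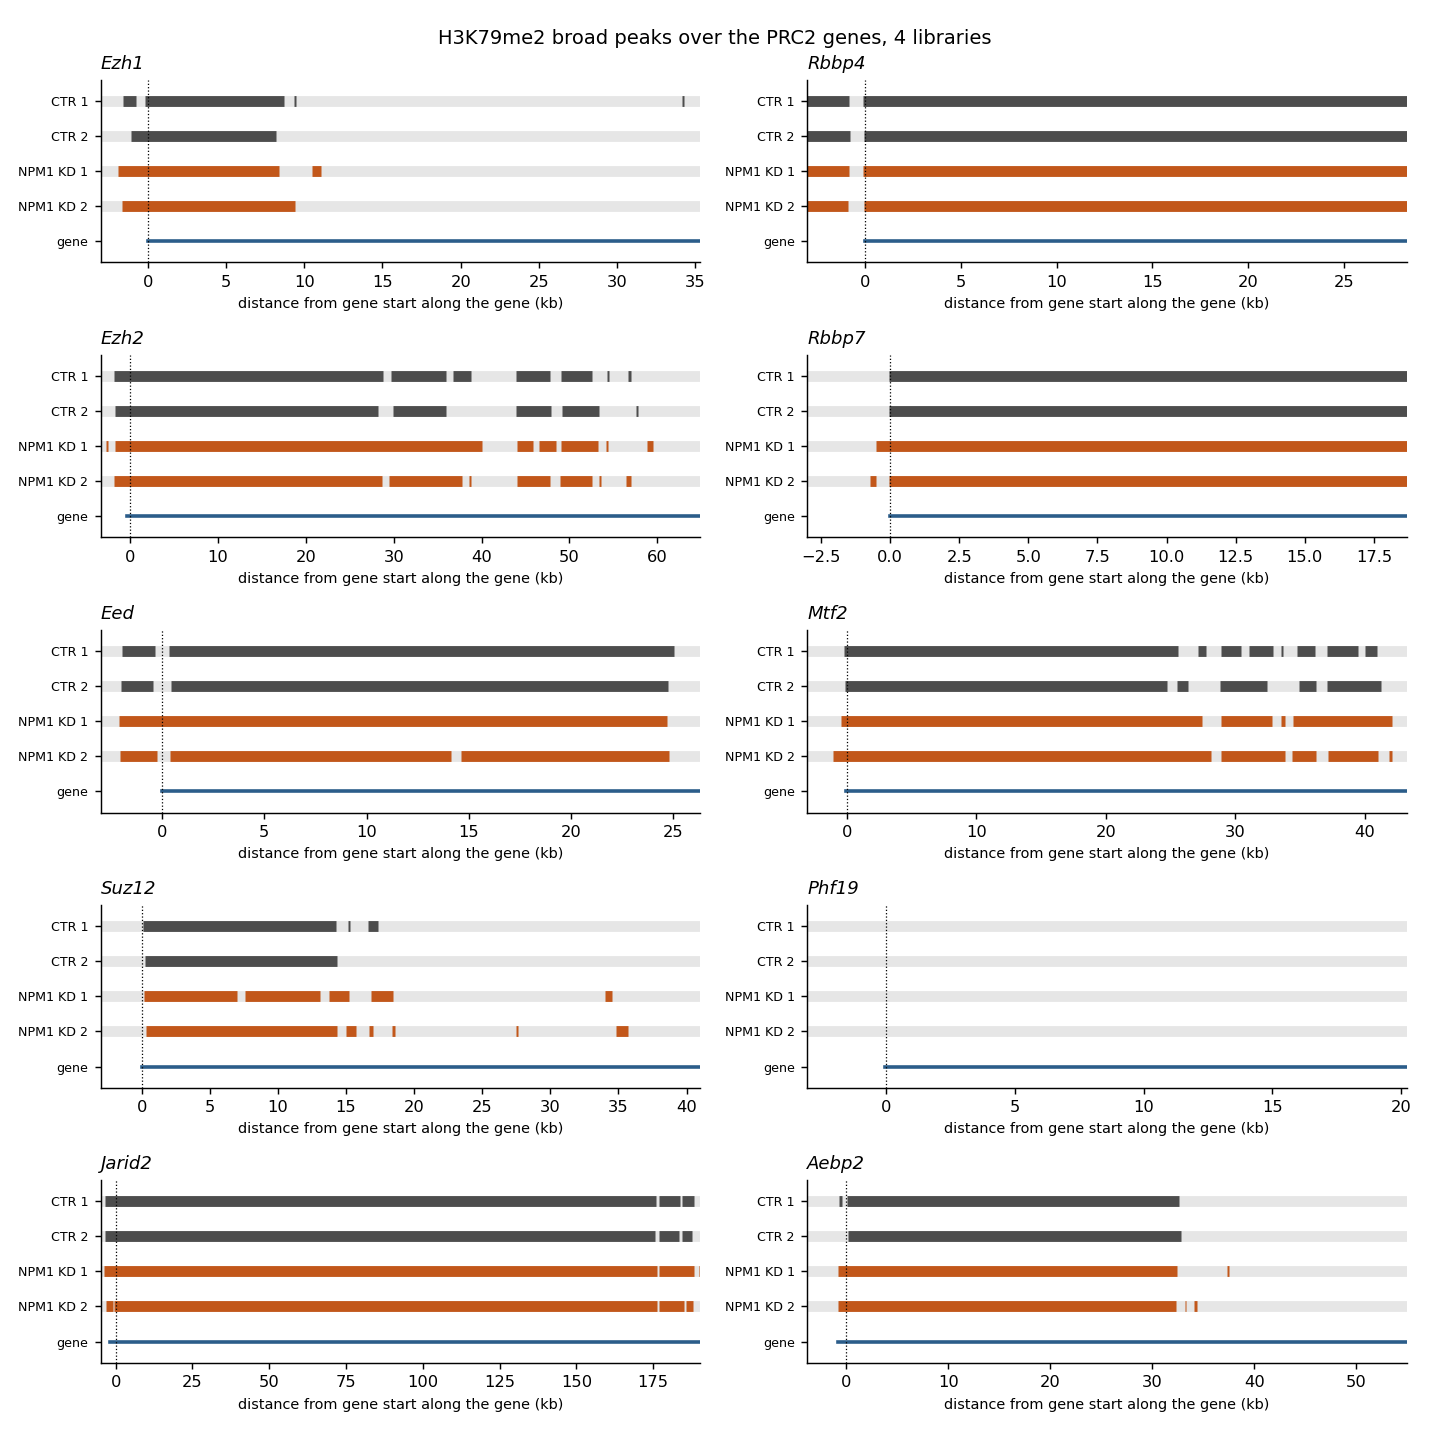
Broad peaks over the window of each PRC2 gene in the 4 libraries, with the distance from the gene start along the gene on the horizontal axis (kb, a different scale in each panel). Grey bars are CTR and orange bars NPM1 KD peaks, light bars the window, the blue line the annotated gene and the dotted line the gene start. Ezh1 and Suz12 carry the mark in their early part, Eed, Jarid2, Rbbp4 and Rbbp7 along nearly the whole gene, Mtf2 and Ezh2 in a long block followed by separate peaks, and Phf19 not at all.

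The structural core subunits fell at both ends of the range. Suz12 (chr11:79993106-80034123, plus strand), which the complex needs for its stability, was the next lowest after Ezh1. Its level was 34.4% and 32.1% in CTR against 36.1% and 37.0% in NPM1 KD. It exceeded that of Ezh1 in every library, by 8.03 ± 0.266 points (SD, n = 4; exact sign-flip permutation test, p = 0.13). The block at Suz12 began just inside the gene, 71 to 302 bp after the start, and no library had a peak in the 3 kb before it. It ended near 14.3 kb, in intron 4, in 3 libraries. In NPM1 KD 1 the caller split it, so that its first peak ended at 7.0 kb.

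Eed (chr7:89954654-89980983, minus strand), which reads H3K27me3 and stimulates the enzyme, was covered along most of its 26.3 kb. The CTR libraries were at 89.9% and 88.1%, and the NPM1 KD libraries at 91.4% and 87.7%. The groups overlapped. In 3 libraries a gap of less than 1 kb around the gene start parted the block from a peak on the upstream side, where the noncoding gene E230029C05Rik runs in the opposite direction. In NPM1 KD 1 a single peak spanned both.

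Rbbp4 and Rbbp7 encode histone chaperones that several chromatin complexes share with PRC2. Rbbp4 (chr4:129307100-129335370, minus strand) was at 97.6% and 97.7% in CTR and 97.6% and 97.3% in NPM1 KD. Rbbp7 (chrX:162760402-162779092, plus strand) was at 86.4% and 86.5% in CTR and 88.5% and 87.3% in NPM1 KD. The groups overlapped at Rbbp4 and not at Rbbp7. All exons and introns of both principal transcripts were covered whole in every library, and the peak of each ran past the annotated 3′ end. What Rbbp7 lacked was upstream cover, 50 to 516 bp of 3 kb, whereas the upstream part of Rbbp4 holds the divergent gene Zbtb8os and had 2170 to 2274 bp covered. The protein-coding genes Sync and Zbtb8os overlap the Rbbp4 window and Txlng the Rbbp7 window. Peaks there cannot be assigned to one gene.

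Among the accessory genes Jarid2 was the most fully covered. JARID2 links PRC2 to its target sites. Over this gene of 192.2 kb (chr13:44729474-44921643, plus strand) the level was 97.5% and 96.7% in CTR and 98.2% and 97.0% in NPM1 KD, with overlapping groups. Its first block alone reached 175.6 to 176.1 kb into the gene, to intron 8, further than at 99.9% of the 10233 genes that had a domain at the start in all libraries. The same percentile was 49.8 for Ezh1, 62.6 for Suz12 and 88.4 for Ezh2. These percentiles rank distances in kb over genes of all lengths, so they depend in part on gene length. The median edge over those genes lay at 8.75 kb, close to that of Ezh1.

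Aebp2 (chr6:140622663-140678472, plus strand), whose zinc finger protein supports the catalytic activity, had a level of 55.8% and 55.6% in CTR and of 57.0% in both NPM1 KD libraries. Its block ended 32.3 to 32.8 kb into the gene, just past the last exon of the principal transcript. Between 97.0% and 100% of the exon bases of that transcript and all of its introns were covered. The annotated gene goes on to 54.97 kb, and beyond the block only 3 small broad peaks fell in it over all libraries.

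Mtf2 (chr5:108065674-108109004, plus strand), which encodes a Polycomb-like protein that binds unmethylated CpG islands, had the widest difference between the groups of the 9 genes. Its level was 74.96% and 75.4% in CTR against 85.7% and 86.6% in NPM1 KD. Both NPM1 KD libraries were above both CTR libraries. The protein-coding gene Tmed5, on the minus strand, overlaps the Mtf2 window, and peaks there cannot be assigned to one gene. All 9 genes with peaks had their intron 1 covered whole in each of the 4 libraries.

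In the order of levels, from Phf19 over Ezh1, Suz12, Aebp2, Ezh2, Mtf2, Rbbp7, Eed and Jarid2 to Rbbp4, most neighbours were apart in every library. The ranges of Mtf2 and Rbbp7, of Rbbp7 and Eed, and of Jarid2 and Rbbp4 overlapped. For the last pair the order itself held in 3 of 4 libraries (difference 0.224 ± 0.634 points, SD; exact sign-flip permutation test, p = 0.625).

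The comparison of NPM1 KD with CTR asked whether the knockdown changed the extent of the mark over these genes. For 6 of the 9 genes with peaks, namely Ezh1, Ezh2, Suz12, Rbbp7, Mtf2 and Aebp2, both NPM1 KD libraries had a higher level than both CTR libraries, and for none was it the reverse. Over all 11863 gene windows with a broad peak, 46.7% were ordered the first way and 2.89% the other. The first order was thus common over the genome, where the median difference was 2.37 points. The median over the 9 genes was 1.51 points.

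By gene, Mtf2 averaged 75.2% ± 0.313 under CTR and 86.2% ± 0.620 under NPM1 KD (SD, n = 2 each), a difference of 10.97 points that was wider than at 93.4% of all windows. Ezh2 differed by 5.00 points, with 66.8% ± 2.44 against 71.8% ± 3.75. Ezh1 differed by 3.39 points, with 25.2% ± 1.32 against 28.6% ± 0.302. Suz12 differed by 3.30 points, with 33.2% ± 1.64 against 36.5% ± 0.622. Each of these 4 reached p = 0.333, the floor of the two-sided exact permutation test. At Ezh2 the gap between the highest CTR and the lowest NPM1 KD library was less than 1 point, smaller than the spread within either group. The difference at Ezh2 was 2.35 points without NPM1 KD 1, 3.27 without CTR 2 and 7.65 without NPM1 KD 2. That at Suz12 was 2.14 points without CTR 2, and that at Rbbp7 0.901 without NPM1 KD 1. Rbbp7 and Aebp2 differed by 1.51 and 1.34 points, Eed and Jarid2 by 0.540 and 0.505 points with overlapping groups, and Rbbp4 by -0.150 points. With each list reduced to its strongest 34845 peaks, the size of the shortest, Mtf2 differed by 11.6 points and Ezh1 by 4.11 points with the groups still apart, and at Rbbp7 the groups then overlapped.

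**Figure D3:**
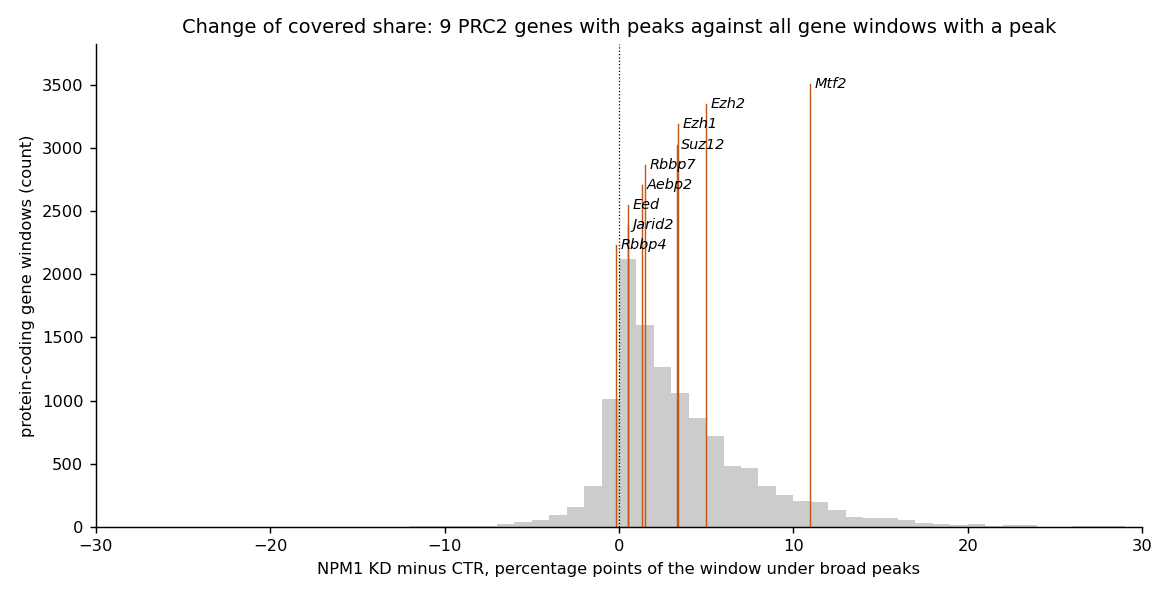
Difference of the covered share, NPM1 KD minus CTR (percentage points, horizontal axis), as a histogram over the 11863 protein-coding gene windows with a broad peak (bars of 1 point, counts on the vertical axis; 23 windows lie outside the plotted range). Orange lines give the 9 PRC2 genes with peaks, their height carrying no value. Mtf2 at 10.97 points is in the upper tail, and the other 8 genes lie between -0.150 and 5.00 points, in the bulk.

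In a test across all windows no PRC2 gene passed. With limma fitted to the log2 of covered bp, 1000 bp being added to each value, the Benjamini-Hochberg adjusted p was under 0.05 at 1 of 11863 windows (0.00843%), Ddc, a gene outside the set that is named here after its value was seen. The smallest adjusted p among the 9 genes was 0.249, at Mtf2, with a log2 change of 0.19 ± 0.02 (SE). At Ezh1 the log2 change was 0.17 ± 0.05 with an adjusted p of 0.311, and at Ezh2 0.10 ± 0.06 with an adjusted p of 0.482. Before adjustment 2 of the 9 were under 0.05, Ezh1 at 0.0391 and Mtf2 at 0.00321, beside 15.2% of all windows. Of the 1806 windows under that limit 1754 were higher in NPM1 KD, and after each library was centred on its own median 864 of 1163. Centring moved the median change of all windows by 0.13 on the log2 scale, from 0.08 to -0.04. It left Mtf2 at 0.06, Ezh1 at 0.04 and Suz12 at 0.00, and turned Ezh2 (-0.03), Aebp2 (-0.09), Rbbp7 (-0.10), Eed (-0.12) and Jarid2 (-0.12) below 0. Rbbp4 was at -0.13.

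Where the added cover lay differed from gene to gene. At Ezh1 it lay mostly before the start. Of the 3 kb upstream of the Ezh1 start, the CTR libraries had 1024 and 1074 bp covered and the NPM1 KD libraries 1928 and 1652 bp. Both NPM1 KD libraries were above both CTR libraries, by 741 bp on average (1790.0 ± 195 against 1049 ± 35.4 bp, SD, n = 2 each), whereas over the gene body alone the Ezh1 groups overlapped. The upstream edge of the block itself lay at -186 and -1074 bp in CTR and at -1928 and -1652 bp in NPM1 KD, and CTR 1 had a separate weak peak of 838 bp just before its block.

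At Ezh2 the upstream part did not separate the groups. It had 1864 and 1758 bp covered in CTR against 1960 and 1767 bp in NPM1 KD. The difference at Ezh2 lay in the gene body, with 69.3% and 65.9% in CTR and 75.4% and 70.1% in NPM1 KD, and only NPM1 KD 1 had the long block.

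Over the set, 5 of the 8 genes with any upstream cover had more of it in both NPM1 KD libraries than in both CTR libraries (Ezh1, Eed, Rbbp7, Mtf2 and Aebp2), and none had less. Among all 8699 genes with such cover the shares were 23.5% and 3.94%. Mtf2 had 239 and 177 bp in CTR and 427 and 1074 bp in NPM1 KD. Aebp2 had 255 and 0 bp in CTR and 861 and 809 bp in NPM1 KD. In both NPM1 KD libraries the block of Aebp2 thus began near the other annotated start, 836 bp before the one used here. Suz12 had none in any library, and Jarid2 was covered over all 3 kb in 3 libraries and over 2460 bp in NPM1 KD 2.

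**Figure D4:**
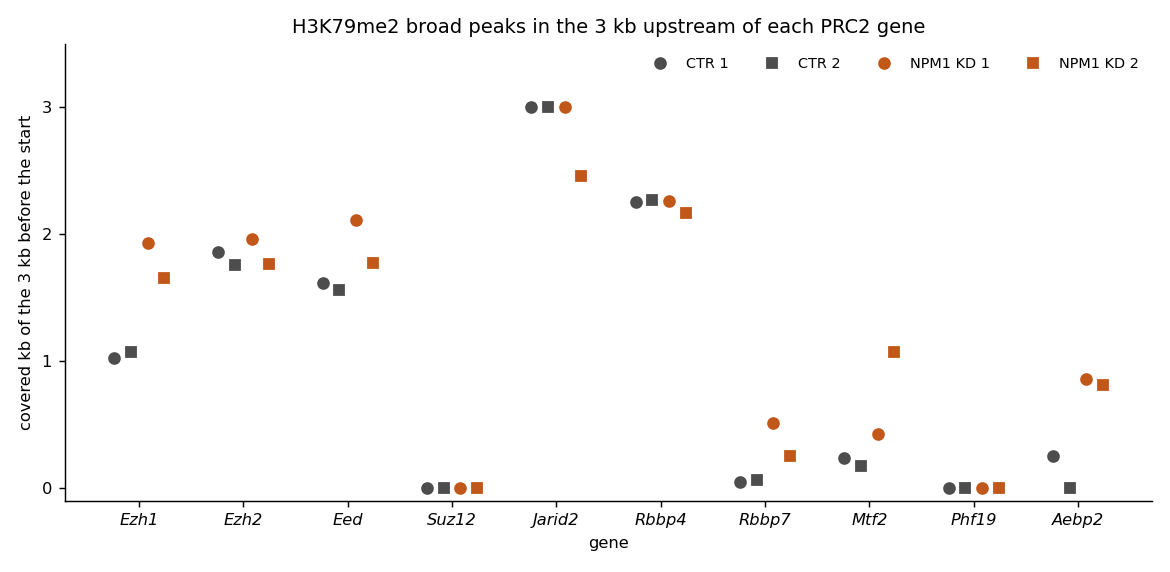
Length under broad peaks (kb, vertical axis) within the 3 kb before the gene start, for the 10 PRC2 genes in the 4 libraries (grey CTR, orange NPM1 KD, circles replicate 1, squares replicate 2). At Ezh1, Eed, Rbbp7, Mtf2 and Aebp2 both orange points are above both grey points, and Suz12 and Phf19 are at 0 throughout.

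The block at the gene start was also compared by its edges. The upstream edge lay further out in both NPM1 KD libraries at 3 of 9 genes (Ezh1, Mtf2 and Aebp2) and further out in both CTR libraries at none, beside 27.5% and 6.39% of the 10233 genes with such a domain. The downstream edge lay further along in both NPM1 KD libraries at 2 genes (Jarid2 and Mtf2) and in both CTR libraries at 2 (Eed and Aebp2), beside 38.0% and 5.87% of all genes. At Mtf2 it was at 25.6 and 24.7 kb in CTR and at 27.5 and 28.1 kb in NPM1 KD, 2.64 kb further on average. At Eed it was at 25.1 and 24.7 kb in CTR and at 24.7 and 14.1 kb in NPM1 KD, where the peak of NPM1 KD 2 was split. With peaks within 1 kb joined the difference at Eed was -0.146 kb and the groups overlapped.

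The difference at Mtf2 had 2 components. The block at its start covered 25369.5 ± 636 bp under CTR against 28552.5 ± 939.7 bp under NPM1 KD, and the peaks beyond it 9465 ± 781 and 11366.5 ± 653 bp (SD, n = 2 each). These later peaks had folds of 1.75 to 2.61, against 9.82 to 11.1 for the block. With only broad peaks of −log10 q of at least 5 kept, Mtf2 still had both NPM1 KD libraries higher (60.2% and 63.1% against 55.7% and 53.8%).

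The same stricter lists left 4 genes with both NPM1 KD libraries above both CTR libraries (Ezh1, Ezh2, Mtf2 and Aebp2), beside 36.3% of windows, and 1 gene the other way, Suz12, beside 3.88%. At Suz12 the stricter lists left 32.3% and 32.1% in CTR against 15.6% and 31.9% in NPM1 KD. In NPM1 KD 1, where the caller had split the block, its part from 7.6 to 13.1 kb was lost at a −log10 q of 3.78. The other libraries held that stretch inside a single longer peak, which stayed. The weaker peaks after the block were gone in CTR 1 and both NPM1 KD libraries. In the narrow lists 7 genes were higher in both NPM1 KD libraries (Ezh1, Eed, Suz12, Rbbp4, Rbbp7, Mtf2 and Aebp2) and none lower, beside 42.1% and 3.65% of windows. Ezh1, Mtf2 and Aebp2 were in this order in all 3 readings. These readings come from the same libraries, and the share of all windows in this order in all 3 was not taken.

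Peak height ran the other way from extent at several genes. The highest narrow summit over each gene was read as fold over background, the ratio of fragments piled up at the summit to the background of the library, with 1 added to both. At Ezh2 it was 30.1 and 30.6 in CTR against 27.04 and 20.1 in NPM1 KD. At Aebp2, the highest of the set, it was 48.6 and 48.1 against 42.4 and 31.3. At Rbbp7 it was 28.3 and 27.3 against 24.1 and 17.5. Each of these 3 genes had both NPM1 KD libraries below both CTR libraries, with NPM1 KD 2 the lowest.

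Eed and Jarid2 were ordered the same way, which made 5 of 9 genes with a lower summit fold in both NPM1 KD libraries and 0 with a higher one. Over 11314 gene windows with a narrow peak in all libraries 28.0% were lower and 8.91% higher. High folds were lower in NPM1 KD over the narrow lists as a whole. The 90th percentile of fold was 8.69 and 9.83 in CTR against 8.21 and 7.67 in NPM1 KD, and the 99th percentile 34.0 and 33.5 against 31.2 and 25.8, lowest in NPM1 KD 2 as at most of the genes. The part of this in the members' folds was not tested.

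The summits were therefore also ranked within their own lists. By rank 3 of 9 genes, Ezh2, Rbbp7 and Aebp2, were lower in both NPM1 KD libraries and 0 were higher, while over all windows 4.91% were lower and 34.8% higher. Ezh2 was at the percentiles 98.5 and 98.6 in CTR against 98.3 and 97.5 in NPM1 KD, and Rbbp7 at 98.2 and 97.9 against 97.7 and 96.6. Aebp2 was at 99.7618 and 99.8171 in CTR against 99.7555 and 99.6026 in NPM1 KD, so its groups were only just apart. The lists differ in length, which moves such percentiles, so ranks were also taken among the strongest 73801 peaks of each list. The same 3 genes were then lower and 0 higher, beside 11.7% and 24.0% of windows.

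Ranks of the broad fold did not show this order. In their own lists 4 of 9 genes, Ezh1, Suz12, Rbbp4 and Mtf2, ranked higher in both NPM1 KD libraries and 0 lower, beside 28.0% and 4.08% of 11233 windows, and the groups overlapped at Ezh2, Rbbp7 and Aebp2. Among the strongest 34845 broad peaks of each list 3 genes, Ezh1, Rbbp4 and Aebp2, ranked higher and 0 lower, beside 30.2% and 12.2%. Ezh1 was the one with the widest such difference of these 3, at the percentiles 83.6 and 83.8 in CTR against 86.6 and 86.0 in NPM1 KD.

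At Ezh1 the summit fold did not separate the groups, and it was below that of Ezh2 in every library. The Ezh1 summit ranked at the percentiles 93.4 and 91.2 in CTR and 94.0 and 91.5 in NPM1 KD. The summit lay 349 to 364 bp after the start in 3 libraries and 854 bp after it in NPM1 KD 2. The pileup recovered there was 171 and 97 fragments in CTR and 135 and 115 in NPM1 KD, whereas at Ezh2 it was 387 and 264 in CTR and 269 and 256 in NPM1 KD. The 95% counting intervals of fold for the 2 genes did not overlap in any library. These intervals cover counting error only. Suz12, at fold 12.3 and 12.7 in CTR and 13.4 and 9.0 in NPM1 KD, overlapped the range of Ezh1.

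**Figure D5:**
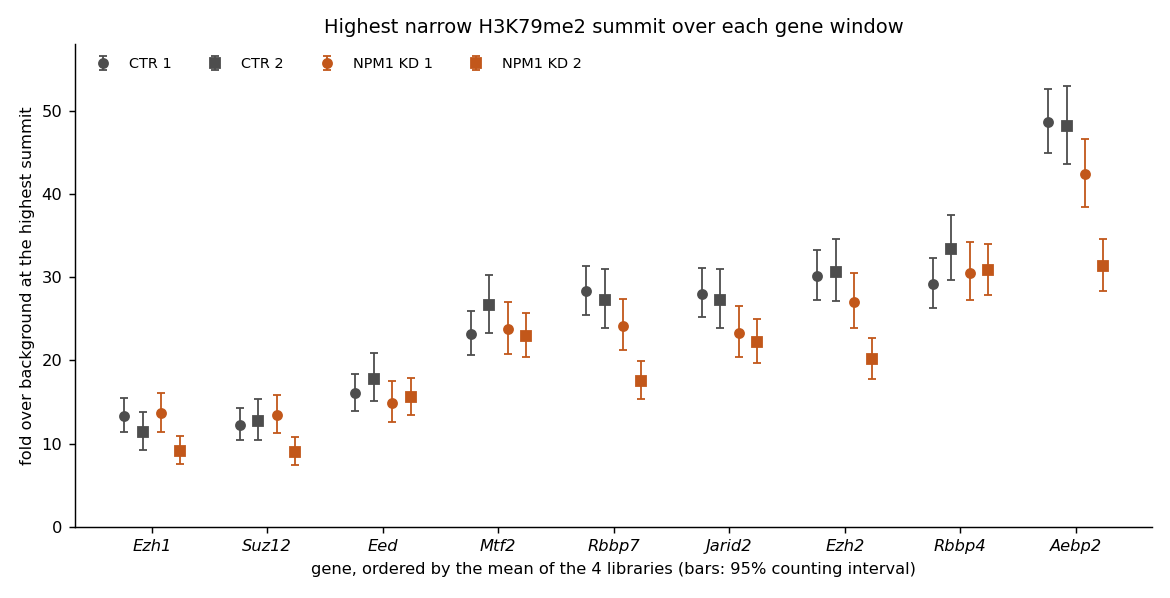
Fold over background at the highest narrow summit of each gene window (vertical axis) in the 4 libraries, for the 9 PRC2 genes with a peak, ordered by mean (grey CTR, orange NPM1 KD, circles replicate 1, squares replicate 2). Bars are 95% counting intervals from the recovered pileup. Ezh1 and Suz12 are the lowest at 9.0 to 13.6, Aebp2 the highest at 31.3 to 48.6, and NPM1 KD 2 gives the lowest point at Ezh1, Suz12, Mtf2, Rbbp7, Jarid2, Ezh2 and Aebp2.

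Other Polycomb genes were counted the same way. Of 21 genes of PRC1, the complex that ubiquitinates histone H2A and compacts chromatin, 20 had a broad peak (Scmh1 had none). In 11 of them both NPM1 KD libraries had the higher level and in 2 both CTR libraries, beside the 46.7% and 2.89% of all windows. The widest differences were at Phc1, with 17.4% ± 4.39 against 29.8% ± 5.78 of the window, and at Bmi1, with 70.8% ± 0.639 against 81.5% ± 1.52 (CTR first; SD, n = 2 each). The 2 in the other order were Ring1, with 84.6% ± 2.48 against 80.2% ± 0.462, and Cbx6, with 75.4% ± 0.169 against 73.4% ± 2.45. The median difference over the 20 genes was 2.51 points. None passed the limma threshold after adjustment, the lowest adjusted p being 0.257 at Bmi1, and 3 of 20 were under 0.05 before it, beside the 15.2% of all windows.

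Of 5 further PRC2 accessory genes 4 were in the annotation, Phf1, Epop, Lcor and Lcorl, of which 3 had a peak and none separated the groups. Epop, like Phf19, had none. The H3K27 demethylase genes, which remove the mark PRC2 sets, were both covered. Kdm6b was under peaks over its whole window in every library, and Kdm6a was at 38.0% ± 0.0464 in CTR and 39.9% ± 0.989 in NPM1 KD. Median levels were 80.7% for the 9 PRC2 genes with peaks, 68.1% for PRC1 and 46.9% for all windows with a peak.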

How the data were processed

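H3K79me2 ChIP-seq was available for 4 libraries of N2a cells, 2 of CTR and 2 of NPM1 KD, each with 1 broad and 1 narrow peak list on mm10. The 2 pooled input samples had no peak list and were not analysed here. Per the study's methods, the authors aligned paired-end reads with Bowtie2, kept well and uniquely mapped ones and called peaks with MACS2, and the submitters' processing notes name FastQC 0.11.9, Trimmomatic 0.38, Bowtie2 2.3.4.1, SAMtools and MACS2 2.2.6. The lists are 1 per library, so replicates stayed separate. Whether the input served as background in the calling is not given in the sources used here. Peak names in the broad lists carry the word filtered and those in the narrow lists do not, so the reads behind the narrow lists may have been filtered differently. In the deposited lists the authors' peak caller gave each peak a score, a fold enrichment (a ratio of pileup to background), a −log10 p and a −log10 q. The deposited score is the −log10 q times 10, rounded down, and was not used further.

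The members and lists were chosen with earlier results of these data known. All 10 members were named, and in the other Polycomb lists at most the 2 genes with the widest difference in each direction among those whose groups did not overlap. Genes came from GENCODE M21, each with its principal transcript, and promoter sequences from RefSeq. Windows ran from 3 kb upstream to the gene end. limma 3.58.1 in R 4.3.3 was fitted to log2(covered bp + 1000) over the 11863 protein-coding windows with a broad peak in any library, without a replicate term. Single values were compared by exact permutation tests that list every arrangement (Python 3.11.15). Fragments at narrow summits were recovered from fold and the constant background of each list, and 97.6% to 99.7% came out whole within 0.02 of an integer. Nearly all narrow folds are thus relative to 1 constant background per library. They carry no correction for local differences in background, which also limits comparisons of summit fold between genes. Intervals are exact Poisson 95% intervals (scipy 1.17.1) and cover counting error only. The block at a gene start was the nearest peak that reached into the gene, a rule narrowed after the peaks at Eed were seen. The scripts were tested on simulated data. Alternatives were narrow lists, −log10 q of at least 5, equal list size, other windows, another added value, centring, no filter, all annotated genes, a replicate block, joined peaks, broad fold, ranks among equal numbers of peaks and leaving out each library.

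The number of a replicate was not taken to pair CTR with NPM1 KD libraries, since the methods tie each replicate to its own passage and transfection without saying that a number was shared between groups.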

Additional observations from a re-analysis of the deposited data

How the results depend on the processing

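The higher cover of Ezh2 than of Ezh1 held in every setting tried, and without any single library the difference was 41.2 to 43.2 percentage points. Members with both NPM1 KD libraries higher numbered 6 in the report and 7 with narrow lists. They numbered 4 with −log10 q of at least 5 and 4 over the gene body alone. With equal list size and in 3 kb around the start they numbered 5, and 6 to 8 when a library was left out. For the gene body, equal list size, the start and left-out libraries the share of all windows was not taken. Those counts are therefore no result about the members. Members in the other order numbered 0 in the report, 1 with −log10 q of at least 5, and 0 to 2 when a library was left out (1 without CTR replicate 1, 2 without NPM1 KD replicate 1). With 2 libraries a group the counts without a library compare 1 library with 2, so they can only stay or rise.

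The single window past the limma threshold, Ddc, was lost without any one library (0 to 0 windows), with narrow lists (0), equal list size (0), 3 kb around the start (0) and no filter (0). With −log10 q of at least 5 there were 21 windows, after centring 2, and over all annotated genes with a peak 5. With the replicate block as a paired term there were 0, the smallest adjusted p of any window in that limma fit being 0.229. No member had passed without the block either, so their unchanged calls say nothing about pairing. Deviations of same-numbered libraries correlated at 0.259 over 11863 windows, which with 2 pairs does not establish pairing. In a fit that leaves out 1 library, the lone sample of its group is assumed to vary like the others.

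Directions turned as follows, as NPM1 KD minus CTR in points of covered share and then as limma's log2 change. Narrow lists gave Rbbp4 2.31 and 0.034. With −log10 q of at least 5, Suz12 was at -8.43 and -0.48 and Jarid2 at -1.26 and -0.019. The gene body alone gave Eed -0.743 and -0.011. In 3 kb around the start Suz12 was at -1.26 and -0.029 and Jarid2 at -4.50 and -0.058. Centring gave log2 changes of -0.026 at Ezh2, -0.12 at Eed, -0.12 at Jarid2, -0.10 at Rbbp7 and -0.094 at Aebp2. Without single libraries Eed ran from -1.32 to 2.40 points (log2 -0.021 to 0.037), Jarid2 from -0.0733 to 1.08 and Rbbp4 from -0.302 to 0.0016.

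For the downstream edge, the median difference over the members was -0.31 kb, 0.693 kb with peaks within 1 kb joined, 1.07 kb with joined narrow peaks, and -0.374 to 0.0345 kb without single libraries. Joining gave Suz12 1.25, Rbbp4 0.620, Rbbp7 0.482 and Aebp2 0.693 kb, and joined narrow peaks gave Suz12 1.58, Rbbp4 1.07 and Aebp2 0.160 kb. Without single libraries Ezh1 ran from -0.0795 to 0.915 kb, Suz12 from -7.31 to 0.0345 kb and Rbbp7 from -2.02 to 0.0325 kb. The median rank of the members' summits moved from the percentile 97.8 to 96.6 when broad fold replaced narrow summit fold, and with ranks among equal numbers of peaks, a choice made after seeing the data, to 97.5 for narrow summits and 95.8 for broad fold. The causes were not tested. Of the alternatives for single members, 71 of 81 for covered share, 113 of 126 for the log2 change and 53 of 63 for the edge were counted as keeping their direction. A difference of 0 was counted so. The same holds for log2 changes that turned but stayed very near 0, at Jarid2 (-0.0011 without NPM1 KD replicate 1) and Rbbp4 (2.3e-05 without NPM1 KD replicate 2). Depth in reads is unknown, so the ends of weak peaks carry no error here.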
